A study of Mus musculus with 24 samples.

Results

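Sarcomeric myosin heavy chains are the motor proteins of the thick filament in striated muscle. The 10 mouse genes considered here are Myh3, Myh8, Myh2, Myh1, Myh4, Myh13, Myh7, Myh7b, Myh6 and Myh15, chosen as the gene family itself out of 19938 genes measured. For each gene the probe set was taken whose platform annotation lists that symbol alone, and each of the 10 genes had 1 such probe set. Expression was measured on 24 Affymetrix whole-transcript arrays, 3 in each of 8 groups. The groups combine a wild-type H-2Kb-tsA58 or a MuSK-/- mouse cell line, a culture stage and a treatment. MuSK, the muscle-specific kinase, is best known from the synapse between nerve and muscle, and the series compared responses to bone morphogenetic protein 4 (BMP4) in muscle cells with and without it.

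Both lines are immortalised, and each genotype is represented by a single line, so a difference between genotypes is also a difference between lines. Untreated and BMP4-treated myoblasts of either line were grown at 33 °C in 20% fetal bovine serum with chicken embryo extract and interferon-γ. Confluent myoblasts were moved to 37 °C and 5% horse serum for 3 days to give the myotubes of either line, again untreated or BMP4-treated. Treated cells received 25 ng/ml BMP4 for 8 h. Before BMP4, treated myoblasts spent 4 h without serum; for untreated myoblasts no such step is given in the labels, so in the myoblast comparisons serum and BMP4 cannot be told apart. Treated myotubes were not deprived. Medium and temperature change together with stage.

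A myosin heavy chain carries the ATPase and actin-binding head that generates force and the coiled-coil rod that packs into the thick filament. Muscle builds its thick filaments from a succession of isoforms. Myh3 (embryonic) and Myh8 (neonatal) are the developmental isoforms, and they are later replaced by the adult fast isoforms Myh2 (IIa), Myh1 (IIx) and Myh4 (IIb) or by the slow isoform Myh7, which is also the beta isoform of the heart. Myh6 is the alpha isoform of the heart, Myh13 is best known from extraocular and laryngeal muscle, and Myh7b and Myh15 are ancient slow-type relatives found in specialised fibres. Contraction speed of a fibre follows largely from the isoform it uses.

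By the RefSeq gene table for GRCm38.p6, Myh3, Myh2, Myh1, Myh4, Myh8 and Myh13 follow one another on chromosome 11 with no other protein-coding gene between them. Myh6 and Myh7 are neighbours on chromosome 14, while Myh7b on chromosome 2 and Myh15 on chromosome 16 stand alone. RefSeq promoter windows were found for all 10 genes. The 4 windows of Myh2, Myh1, Myh4 and Myh8 were chosen first and searched for the longest run of letters they share. In the 250 bases before the start this is a run of 14 letters, TTCTAATTATATCC. Of 32851 mouse windows of 250 bases, 4 hold this run on either strand (0.0122%), and they are these. The run was taken from these 4 windows, so its presence in them was fixed in advance and is not a test. A second AT-rich stretch lies upstream of it, and in Myh1, Myh4 and Myh8 it holds a match to the consensus motif of MEF2, a family of muscle transcription factors. The motif was searched on both strands and occurs in 2.92% of all windows. Capitals mark the shared run and, further upstream, the MEF2 match.
Myh2: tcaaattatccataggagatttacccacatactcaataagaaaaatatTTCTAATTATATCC
Myh1: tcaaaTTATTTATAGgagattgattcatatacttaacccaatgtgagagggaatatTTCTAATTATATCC
Myh4: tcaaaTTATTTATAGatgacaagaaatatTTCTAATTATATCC
Myh8: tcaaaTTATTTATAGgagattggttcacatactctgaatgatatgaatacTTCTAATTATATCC
All 4 are on the plus strand of GRCm38.p6, at chr11:67170854-67170915 for Myh2, chr11:67199886-67199955 for Myh1, chr11:67237625-67237667 for Myh4 and chr11:67277020-67277083 for Myh8. The shared run begins 125 bases before the annotated start in Myh2, 160 in Myh1, 158 in Myh4 and 54 in Myh8. The windows of Myh3, Myh13, Myh7, Myh7b, Myh6 and Myh15 held neither the run nor a MEF2 match, although Myh3, Myh7, Myh7b and Myh6 also rose with stage in both lines. The E-box CANNTG, bound by myogenic factors among others, was present in the windows of 8 of the 10 genes and in 66.2% of all windows. These matches describe letters in a window and not binding.

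Deposited values are log2 signals and run from 2.5 to 15.03, with array medians between 7.38 and 7.50; the number of arrays limits their precision. The labels call the 3 samples of a group biological replicates without saying whether they were separate cultures, so the p-values rest on the spread among these arrays, which may be technical. All adjusted p-values are Benjamini-Hochberg values over 19938 genes from limma, with 0.05 as the threshold for a call, and differences are in log2 units with their standard error (SE). No detection call was used. Signals of 1035 probe sets of olfactory receptor genes served as a guide to background, and a member was taken as near background in a group where its mean was at or below the 95th percentile of those signals, 6.61 to 6.73 by group. That level comes from other probe sets, so it is a guide and not a limit of the member's own probes. Signals of different genes are not compared. In each myoblast group 1 array was picked, the one scoring highest on the main shared deviation of probe sets without a gene name. Across the 19938 genes, deviations on these 4 arrays were correlated with each other (0.42 to 0.54). Results that rest on this array set are also given without it. Musk itself was lower in the MuSK-null line, with a difference of -0.72 (SE 0.07, adjusted p = 2.81e-08) in untreated myoblasts and -1.51 (SE 0.07, adjusted p = 5.68e-14) in untreated myotubes. Its signal stayed far above the background guide in the MuSK-null line, at 10.93, 10.69 and 10.94 on the untreated myoblast arrays and 11.17, 11.24 and 11.24 on the untreated myotube arrays. Which part of the gene the probes cover was not tested, so this signal does not settle the genotype label. Of 9 defining skeletal muscle markers measured, 9 were above the background guide in each of the 8 groups. RNA was taken from whole cultures, so fewer differentiated cells and less RNA per cell cannot be told apart in any result below. The developmental and fast chains are close paralogues, and how far their probes cross-hybridise was not tested.

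**Figure D1:**
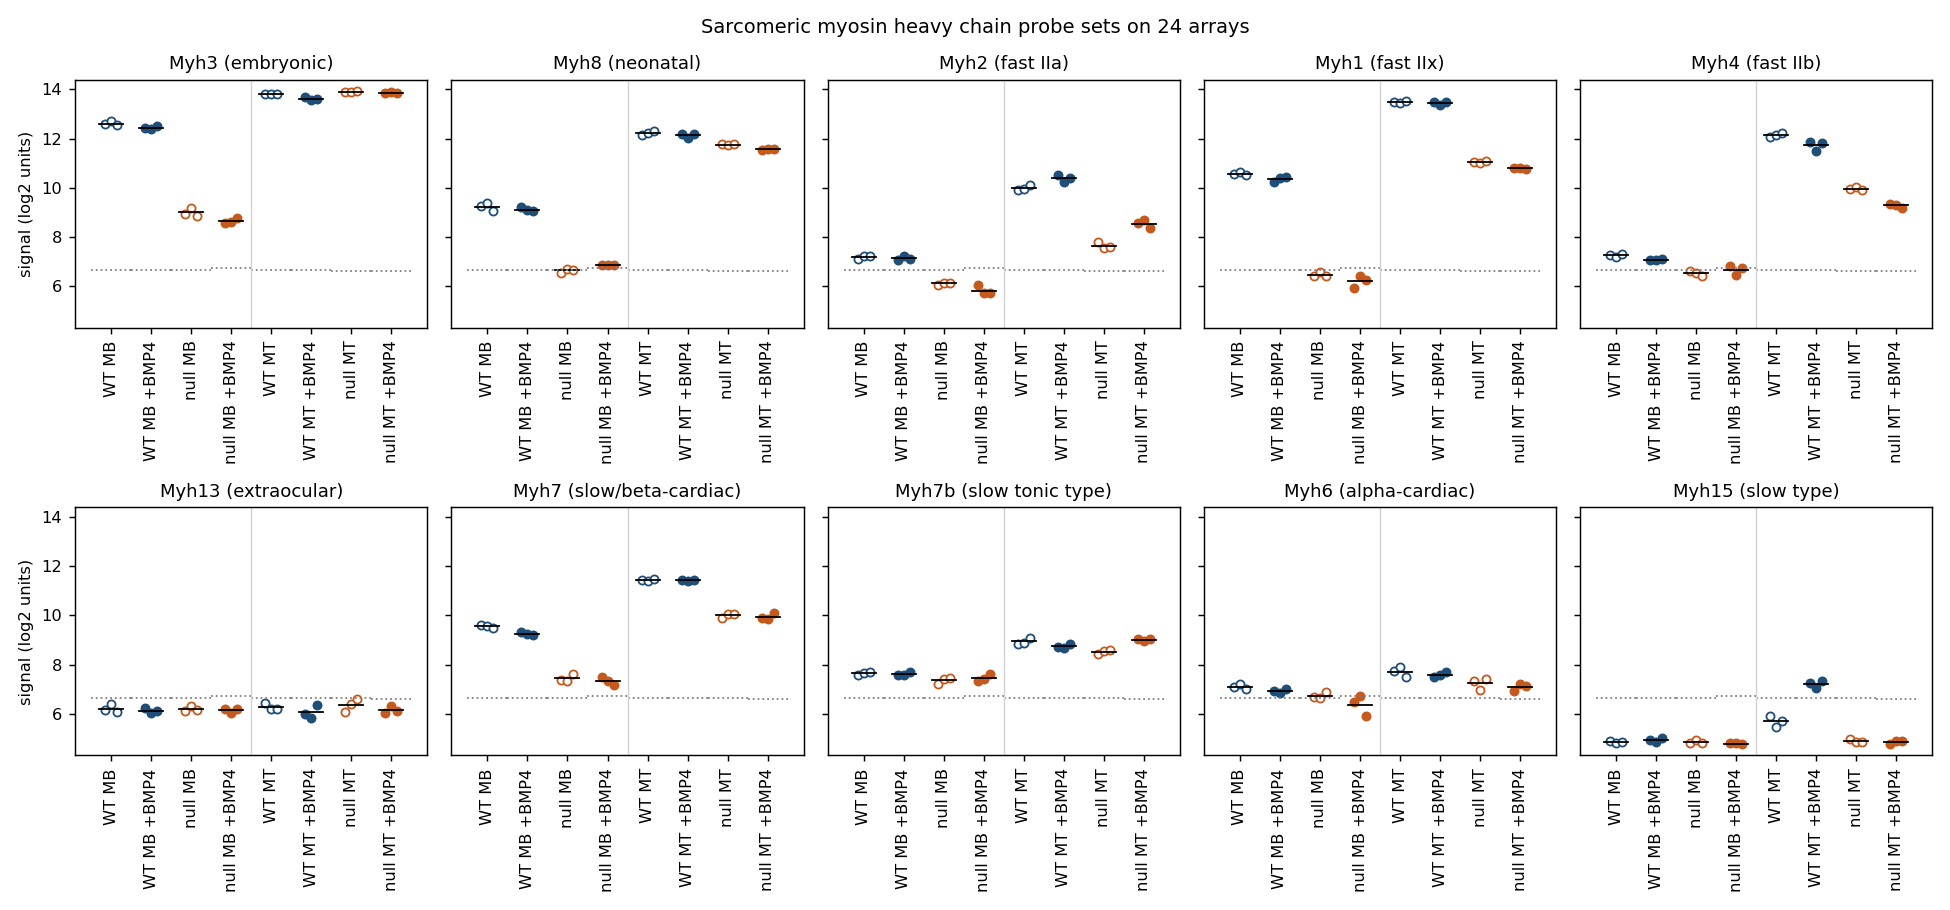
Signal (log2 units) of each of the 10 myosin heavy chain probe sets on every array, by group (WT wild type, blue; null MuSK-null, orange; MB myoblasts; MT myotubes; filled points BMP4-treated). Bars are means of 3 arrays and the dotted line is the 95th percentile of olfactory receptor probe sets (6.61 to 6.73). Myh3 lies between 13.57 and 13.93 on all myotube arrays, while MuSK-null myoblasts have the lowest Myh3 signals (8.56 to 9.18), and Myh15 passes the dotted line only in BMP4-treated wild-type myotubes (7.07 to 7.33).

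The embryonic isoform gene Myh3 was above the background guide in all 8 groups. Its signals were 12.59, 12.70 and 12.54 in untreated wild-type myoblasts and 8.95, 9.18 and 8.87 in untreated MuSK-null myoblasts. In myotubes they were 13.79, 13.79 and 13.81 in wild type and 13.88, 13.87 and 13.93 in the MuSK-null line. The myoblast groups were thus far apart, and the MuSK-null myotubes lay just above the wild-type ones. Between MuSK-null and wild-type myoblasts Myh3 differed by -3.61 (SE 0.07, a 12.2-fold difference, adjusted p = 1.9e-20). In untreated myotubes the difference was 0.10 (SE 0.07, adjusted p = 0.324). Myh3 rose from myoblasts to myotubes by 1.19 (SE 0.07, adjusted p = 2.34e-12) in wild type and by 4.90 (SE 0.07, adjusted p = 1.47e-23) in the MuSK-null line. The stage change was larger by 3.71 (SE 0.10, adjusted p = 5e-17) in the MuSK-null line. In all, 53 of 19938 genes had a higher top group mean than the 13.89 of Myh3, and whether the array signal is saturated there was not tested.

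The neonatal isoform gene Myh8 was likewise lower in untreated MuSK-null than in untreated wild-type myoblasts. It read 9.26, 9.37 and 9.07 in untreated wild-type myoblasts and 6.53, 6.72 and 6.67 in MuSK-null myoblasts, the latter near background. In myotubes it read 12.13, 12.24 and 12.29 in wild type and 11.76, 11.74 and 11.76 in the MuSK-null line. No values overlapped between the lines at either stage. Myh8 differed between MuSK-null and wild type by -2.59 (SE 0.07, adjusted p = 4.64e-18) in myoblasts, at least 5.97-fold when the MuSK-null level is set to the background guide. In myotubes the difference was -0.46 (SE 0.07, adjusted p = 1.91e-05). Its stage change was 2.99 (SE 0.07) in wild type and 5.11 (SE 0.07) in the MuSK-null line, a difference of 2.13 (SE 0.10, adjusted p = 2.39e-13).

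The fast IIx gene Myh1 showed the largest measured difference between the lines of the 10 genes in untreated cells. It read 10.56, 10.64 and 10.52 in untreated wild-type myoblasts and 6.41, 6.57 and 6.41, near background, in MuSK-null myoblasts. In myotubes it read 13.48, 13.45 and 13.53 in wild type and 11.05, 11 and 11.08 in the MuSK-null line. MuSK-null myotubes thus lay just above wild-type myoblasts and well below wild-type myotubes. Myh1 differed in MuSK-null myoblasts by -4.11 (SE 0.09, adjusted p = 4.29e-20), at least 15.2-fold against the background guide. In myotubes it differed by -2.44 (SE 0.09, a 5.43-fold difference, adjusted p = 2.98e-16). Its rise with stage was 2.91 (SE 0.09) in wild type and 4.58 (SE 0.09) in the MuSK-null line, a difference of 1.67 (SE 0.12, adjusted p = 2.45e-10).

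The fast IIb gene Myh4, the chain of the fastest adult fibres, had the largest stage change in wild type among the 10 genes. Its signals were 7.25, 7.19 and 7.31 in untreated wild-type myoblasts and 12.08, 12.13 and 12.22 in wild-type myotubes. In the MuSK-null line they were 6.60, 6.55 and 6.43 in myoblasts, near background, and 9.93, 10.03 and 9.92 in myotubes. Each stage was separate from the other in both lines, and the MuSK-null arrays were the lower ones at both stages. Myh4 rose with stage by 4.90 (SE 0.09, a 29.8-fold rise, adjusted p = 4.06e-21) in wild type. In the MuSK-null line it rose by 3.44 (SE 0.09, adjusted p = 4.72e-19), at least 9.90-fold. The measured stage changes differed by -1.46 (SE 0.13, adjusted p = 5.87e-09), but the MuSK-null myoblast level is only an upper bound, so which rise is larger cannot be read. Between the lines Myh4 differed by -0.72 (SE 0.09, adjusted p = 1.02e-06) in untreated myoblasts and by -2.18 (SE 0.09, adjusted p = 5.62e-15) in untreated myotubes.

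Myh2, the fast IIa gene of oxidative fast fibres, was likewise near background in MuSK-null myoblasts. It read 7.10, 7.23 and 7.21 in untreated wild-type myoblasts and 6.07, 6.15 and 6.14 in MuSK-null myoblasts. In untreated myotubes it read 9.89, 9.93 and 10.11 in wild type and 7.80, 7.54 and 7.60 in the MuSK-null line. The MuSK-null myotubes therefore stood closer to wild-type myoblasts than to wild-type myotubes. Myh2 rose with stage by 2.80 (SE 0.10) in wild type. Its rise in the MuSK-null line was 1.53 (SE 0.10), at least 1.99-fold against the background guide. The measured changes differed by -1.27 (SE 0.14, adjusted p = 1.95e-07), and here too the larger rise cannot be read. In untreated myotubes Myh2 differed between the lines by -2.33 (SE 0.10, a 5.03-fold difference, adjusted p = 7.75e-15).

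The slow isoform gene Myh7 was above the guide in all 8 groups. It read 9.62, 9.57 and 9.50 in untreated wild-type myoblasts and 7.39, 7.33 and 7.61 in MuSK-null myoblasts. Myotubes read 11.43, 11.39 and 11.47 in wild type and 9.89, 10.06 and 10.05 in the MuSK-null line. The lines were separate at both stages, with the MuSK-null arrays lower. Myh7 differed by -2.12 (SE 0.08, adjusted p = 1.47e-15) in MuSK-null myoblasts and by -1.43 (SE 0.08, a 2.70-fold difference, adjusted p = 2.02e-12) in MuSK-null myotubes. It rose with stage by 1.87 (SE 0.08) and 2.56 (SE 0.08), which differed by 0.69 (SE 0.12, adjusted p = 7.14e-05). Slow and fast chains were thus both lower in the MuSK-null myotubes.

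Myh7b, a slow-type chain whose transcript hosts a muscle microRNA, varied less. Untreated myoblasts read 7.59, 7.66 and 7.71 in wild type and 7.21, 7.41 and 7.46 in the MuSK-null line, and untreated myotubes 8.85, 8.90 and 9.08 against 8.44, 8.57 and 8.58. Stage raised it by 1.29 (SE 0.08, adjusted p = 6.23e-12) in wild type and 1.17 (SE 0.08, adjusted p = 3.79e-11) in the MuSK-null line, and the difference of -0.12 (SE 0.12, adjusted p = 0.504) did not pass. In untreated cells Myh7b differed in the MuSK-null line by -0.29 (SE 0.08, adjusted p = 0.008) in myoblasts and by -0.41 (SE 0.08, adjusted p = 0.000297) in myotubes. The myoblast call was lost without MuSK-null replicate 1 (-0.22, adjusted p = 0.0726).

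Myh6, the alpha-cardiac chain, stayed within 5.91 to 7.89 on all arrays and was near background in 1 of the 8 groups. It rose with stage by 0.61 (SE 0.15, adjusted p = 0.00163) in wild type and by 0.50 (SE 0.15, adjusted p = 0.00817) in the MuSK-null line, where the call was lost without myotube replicate 3 (0.42, adjusted p = 0.0527). In untreated myotubes it differed in the MuSK-null line by -0.46 (SE 0.15, adjusted p = 0.0166), a call lost without wild-type replicate 2 (-0.38, adjusted p = 0.0898) or MuSK-null replicate 2 (-0.33, adjusted p = 0.117). Over the 8 group means its signal had a Pearson correlation of 0.964 with that of its neighbour Myh7, given as a description; cross-hybridisation between them was not tested. Of 10 cardiac muscle markers, 6 to 8 were above the background guide in each group, among them Nkx2-5 and Gata4, while Tbx5 and Ryr2 were near background in all 8 groups. Myh13, the extraocular chain, was near background in all 8 groups (5.83 to 6.59) and is given no differences.

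In all, 3 microRNAs lie within genes of this family in the RefSeq coordinates, miR-208a in Myh6, miR-208b in Myh7 and miR-499 in Myh7b. They are shown because they belong to the same transcription units, with the seed (bases 2 to 8) in capitals.
miR-208a-3p: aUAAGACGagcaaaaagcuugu
miR-208b-3p: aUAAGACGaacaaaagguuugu
miR-499-5p: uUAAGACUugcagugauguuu
The first 2 share the seed UAAGACG, and the third shares the leading 6 of its 7 letters. Probe sets listed for Mir208a and Mir499 were near background in all 8 groups, with group means of 4.53 to 4.93 and 4.94 to 5.20, while the host Myh7b rose with stage. Whether these probe sets detect mature microRNAs was not tested. A probe set listing Mir208b alone was not used here.

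Read over the family, 9 of 10 genes rose with stage in untreated wild-type cells and 0 fell, where 45.0% of all genes were called, 20.3% higher and 24.7% lower. Signals of these 9 did not overlap between the stages, but the share of all genes without overlap is not given here. Myh15 is among the 9, with means near background at both stages (4.88 in myoblasts and 5.69 in myotubes). In the MuSK-null line 8 of 10 rose and 0 fell, where 41.6% of all genes were called, 18.2% higher and 23.4% lower. The median stage change of the 10 genes was 1.58 in wild type, beside -0.05 over all genes tested, and 2.04 in the MuSK-null line, beside -0.01. The stage change itself differed between the lines for 7 of 10 genes, where 29.1% of all genes were called, 14.9% higher and 14.1% lower. It was larger in the MuSK-null line for Myh3, Myh8, Myh1 and Myh7. For Myh4 and Myh2 the measured difference was negative, with MuSK-null myoblasts near background, and Myh15 was near background in all 4 groups compared, so no direction is read for these.

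**Figure D2:**
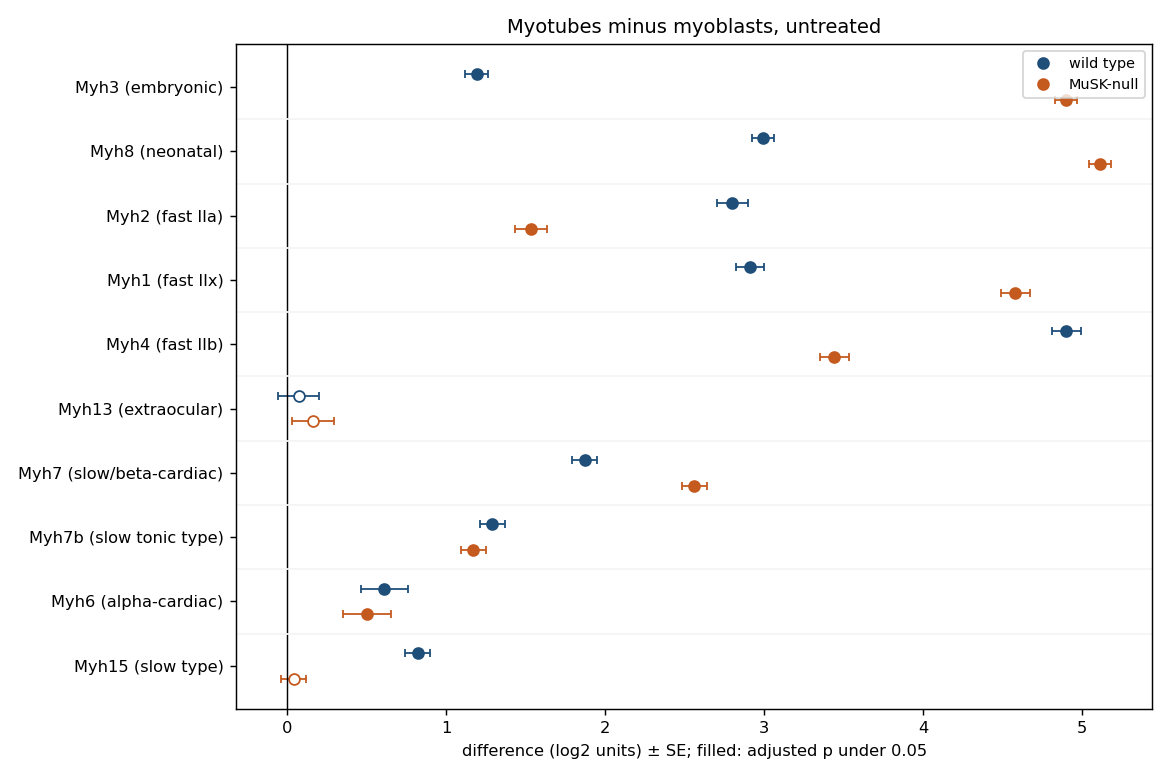
Difference between untreated myotubes and untreated myoblasts (log2 units, points with SE bars) for the 10 genes in wild-type and MuSK-null cells; filled points have an adjusted p under 0.05. Myh3 rises by 1.19 in wild type and 4.90 in the MuSK-null line, whereas Myh4 rises by 4.90 in wild type and 3.44 in the MuSK-null line, where its myoblast signal is near background.

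Between untreated myoblasts of the lines, 7 of 10 genes were lower in MuSK-null cells and 0 higher, where 31.3% of all genes were called, 15.3% higher and 16.0% lower. In untreated myotubes 8 of 10 were lower and 0 higher, where 37.4% of all genes were called, 19.4% higher and 18.0% lower. Myh15 is counted among the 8, although its means were near background in both lines (4.89 in MuSK-null and 5.69 in wild type). The median difference of the 10 genes was -0.89 in untreated myoblasts, beside -0.01 over all genes, and -0.63 in untreated myotubes, beside 0.04. The genes not called were Myh6, Myh13 and Myh15 in myoblasts and Myh3 and Myh13 in myotubes. In myoblasts the MuSK-null levels of Myh8, Myh1, Myh4 and Myh2 are upper bounds, so the sizes are not ranked there. In myotubes Myh1, Myh2 and Myh4 were the furthest apart, and Myh2 (-2.33, SE 0.10) and Myh1 (-2.44, SE 0.09) did not differ beyond their errors. After BMP4, 7 of 10 genes were lower and 0 higher in MuSK-null myoblasts, where 29.7% of all genes were called, 14.1% higher and 15.6% lower. In treated MuSK-null myotubes 7 of 10 were lower and 2 higher, where 36.3% of all genes were called, 17.5% higher and 18.8% lower. The higher ones were Myh3 by 0.24 (SE 0.07, adjusted p = 0.0114) and Myh7b by 0.28 (SE 0.08, adjusted p = 0.00956).

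Markers of some other cells differed between the lines, in both directions. Fibroblast markers were higher in MuSK-null cells in 8 of 11 cases and lower in 2 among untreated myoblasts, and higher in 8 and lower in 3 among untreated myotubes. Over all genes 15.3% were called higher and 16.0% lower in untreated myoblasts, and 19.4% higher and 18.0% lower in untreated myotubes. Their mean signal over the 11 genes was 8.93 to 8.95 on untreated wild-type and 9.57 to 9.59 on untreated MuSK-null myoblast arrays, and 9.35 to 9.49 against 10.34 to 10.46 in myotubes. Dcn, a matrix proteoglycan gene, was higher by 2.30 (SE 0.08) in MuSK-null myoblasts and by 2.66 (SE 0.08) in MuSK-null myotubes. Smooth muscle markers, as a mean over 6 genes, were lower in untreated MuSK-null myoblasts, at 9.75 to 9.76 against 10.25 to 10.34 in wild type. Called lower there were Cnn1 (-1.86), Tagln (-0.97) and Myh11 (-0.31), while Acta2, Smtn and Lmod1 were not called. In untreated myotubes the smooth muscle mean was 9.79 to 9.83 in the MuSK-null line against 9.92 to 10.0 in wild type. In those myotubes Cnn1 (-1.50) and Tagln (-0.29) were lower, Lmod1 (0.55) and Smtn (0.48) were higher, and Acta2 and Myh11 were not called. The defining skeletal muscle markers, as a mean over 9 genes, ran from 12.15 to 12.16 in untreated wild-type and 10.56 to 10.62 in untreated MuSK-null myoblasts, but from 12.88 to 12.94 and 12.77 to 12.78 in myotubes. Within this mean Myf5 was higher in the MuSK-null line, by 1.83 (SE 0.08) in untreated myoblasts and 1.44 (SE 0.08) in untreated myotubes. Every other marker of that list was called lower in untreated myoblasts. In untreated myotubes Myod1 (-0.66), Ckm (-0.59), Des (-0.48), Actn2 (-0.35), Acta1 (-0.29) and Mymk (-0.24) were called lower, and Myog and Cdh15 were not called. Lum was near background in untreated myoblasts of both lines. The part of these markers in the differences of the myosin genes was not tested.

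**Figure D3:**
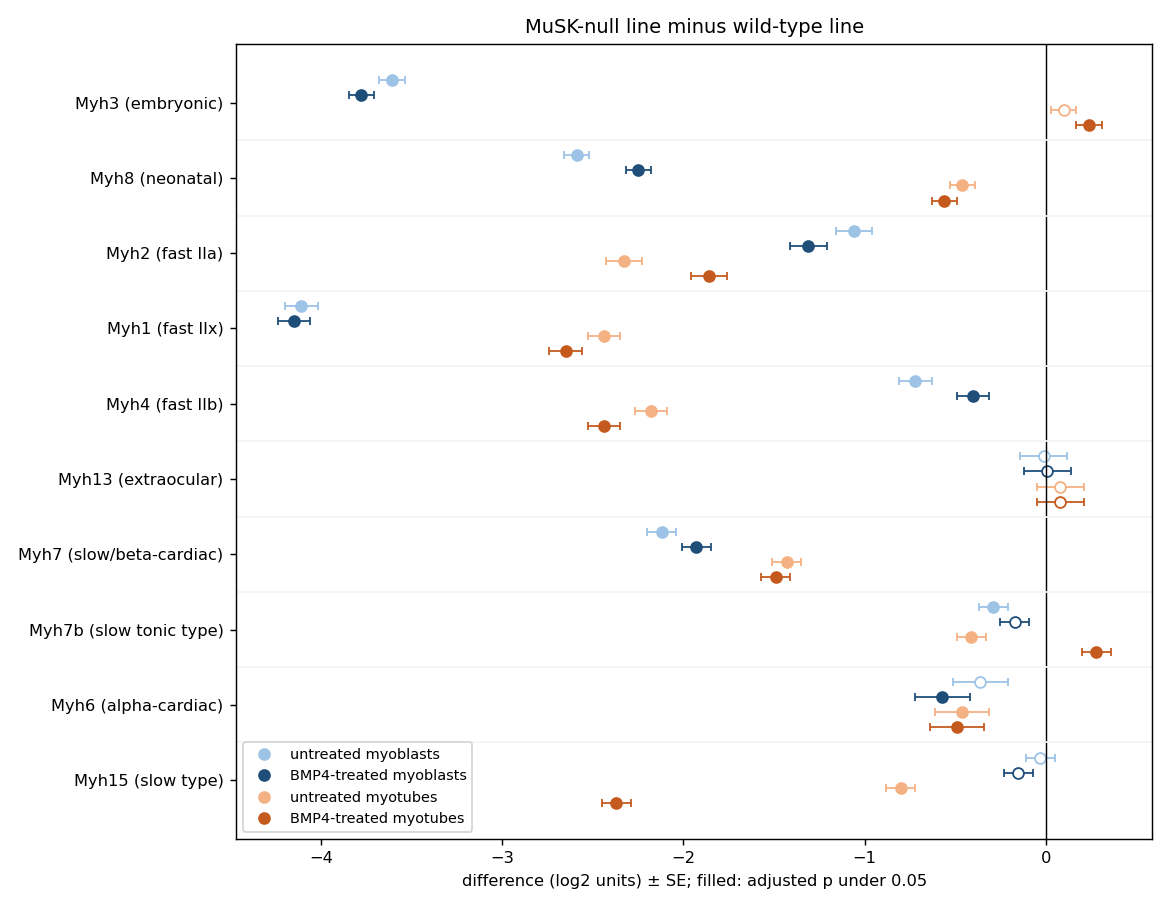
Difference between the MuSK-null and the wild-type line (log2 units, points with SE bars) for the 10 genes at each stage, untreated and BMP4-treated; filled points have an adjusted p under 0.05. Myh3 differs by -3.61 in untreated MuSK-null myoblasts and by 0.10 in untreated myotubes, while Myh2 and Myh4 differ by -2.33 and -2.18 in untreated myotubes. The sizes of their measured myoblast differences (-1.06 and -0.72) cannot be read, since both genes are near background in MuSK-null myoblasts.

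In BMP4-treated myoblasts the share of these genes called was close to that of all genes. In wild-type myoblasts 1 of 10 fell and 0 rose, where 11.0% of all genes were called, 5.21% higher and 5.76% lower. The slow gene Myh7 went from 9.62, 9.57 and 9.50 to 9.33, 9.25 and 9.22, a fall by 0.30 (SE 0.08, adjusted p = 0.0195) with no overlap. That call was lost without the array set (-0.27, adjusted p = 0.142) and on leaving out untreated replicate 1 (adjusted p = 0.0921) or 2 (adjusted p = 0.0533) or treated replicate 2 (adjusted p = 0.0672) or 3 (adjusted p = 0.078). In MuSK-null myoblasts 1 of 10 fell and 0 rose, where 8.42% of all genes were called, 3.89% higher and 4.52% lower. The embryonic gene Myh3 went from 8.95, 9.18 and 8.87 to 8.56, 8.61 and 8.77 there, a fall by 0.35 (SE 0.07, adjusted p = 0.00189). With the replicate numbers as a block the count in MuSK-null myoblasts was 2, the second gene being Myh1, which is near background in both of those groups. The call of Myh3 was lost when the compared groups alone were fitted (adjusted p = 0.0858). The difference between the lines in the myoblast response was called by limma for 0 of 10 genes, with 2 at an unadjusted p under 0.05, where 2.39% of all genes were called, 1.17% higher and 1.22% lower.

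In myotubes of both lines BMP4 lowered one fast isoform gene and raised another. The IIb gene Myh4 went from 12.08, 12.13 and 12.22 to 11.84, 11.50 and 11.83 in wild type and from 9.93, 10.03 and 9.92 to 9.36, 9.31 and 9.17 in the MuSK-null line. No treated value reached an untreated one in either line. Myh4 fell by 0.42 (SE 0.09, adjusted p = 0.00301) in wild type and by 0.68 (SE 0.09, adjusted p = 9.39e-06) in the MuSK-null line. The IIa gene Myh2 went the other way, from 9.89, 9.93 and 10.11 to 10.50, 10.25 and 10.41 in wild type. In the MuSK-null line it went from 7.80, 7.54 and 7.60 to 8.55, 8.69 and 8.35. Again the treated and untreated arrays were separate. Myh2 rose by 0.41 (SE 0.10, adjusted p = 0.00788) in wild type, a call lost without untreated replicate 1 (0.37, adjusted p = 0.0505). In the MuSK-null line the rise was 0.88 (SE 0.10, a 1.85-fold rise, adjusted p = 6.9e-07). The responses of Myh4 differed between the lines by -0.25 (SE 0.13, adjusted p = 0.392) and those of Myh2 by 0.47 (SE 0.14, adjusted p = 0.073). Neither difference passed, and that of Myh2 passed without MuSK-null untreated replicate 1 (0.55, adjusted p = 0.0422), without MuSK-null treated replicate 3 (0.56, adjusted p = 0.0273) and with dim genes left out (adjusted p = 0.0482).

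Between those genes on the chromosome lies the IIx gene Myh1, whose change was -0.04 (SE 0.09, adjusted p = 0.866) in wild-type myotubes and -0.25 (SE 0.09, adjusted p = 0.0623) in MuSK-null myotubes. The second value passed under 5 alternative fits, among them the compared groups alone (adjusted p = 0.0331). The developmental genes changed by -0.18 (SE 0.07, adjusted p = 0.154) for Myh3 and -0.09 (SE 0.07, adjusted p = 0.583) for Myh8 in wild type, and by -0.04 (SE 0.07, adjusted p = 0.861) and -0.19 (SE 0.07, adjusted p = 0.118) in the MuSK-null line. The slow gene Myh7 changed by 0.01 (SE 0.08, adjusted p = 0.981) and -0.05 (SE 0.08, adjusted p = 0.835). None of these passed in the fit of all arrays.

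The remaining calls were Myh15 and Myh7b, each made in one line. Myh15 read 4.92, 4.83 and 4.88 in untreated wild-type myoblasts, 5.90, 5.48 and 5.71 in untreated wild-type myotubes and 7.25, 7.07 and 7.33 in BMP4-treated wild-type myotubes. In the MuSK-null line it read 4.98, 4.85 and 4.85 in untreated and 4.78, 4.90 and 4.89 in treated myotubes. Treated wild-type myotubes were the one group of 8 above the background guide, and at the 99th percentile of the same olfactory receptor probe sets, 7.44, their mean of 7.22 was near background as well. Myh15 rose there by 1.53 (SE 0.08, adjusted p = 2.14e-11), at least 1.49-fold against the guide, and its change in the MuSK-null line was -0.03 (SE 0.08, adjusted p = 0.895). The responses differed by -1.56 (SE 0.12, adjusted p = 2.09e-08), and since the MuSK-null signal is near background the size cannot be read. Untreated wild-type myotubes were already above wild-type myoblasts (adjusted p = 2.09e-08) with no overlap, although both means were at or below the guide.

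Myh7b showed the opposite pattern. In MuSK-null myotubes it went from 8.44, 8.57 and 8.58 to 9.05, 8.97 and 9.05, a rise by 0.49 (SE 0.08, a 1.41-fold rise, adjusted p = 0.000153). In wild-type myotubes it went from 8.85, 8.90 and 9.08 to 8.72, 8.67 and 8.83, a change of -0.20 (SE 0.08, adjusted p = 0.167). Treated and untreated arrays were separate in both lines, in opposite directions. The responses differed by 0.69 (SE 0.12, adjusted p = 0.000836). In each line 2 of 10 genes rose and 1 fell, where 8.77% of all genes were called in wild type, 4.40% higher and 4.37% lower, and 11.3% in the MuSK-null line, 5.36% higher and 5.90% lower. Responses differed between the lines for 2 of 10 genes, where 3.21% of all genes were called, 1.50% higher and 1.71% lower.

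**Figure D4:**
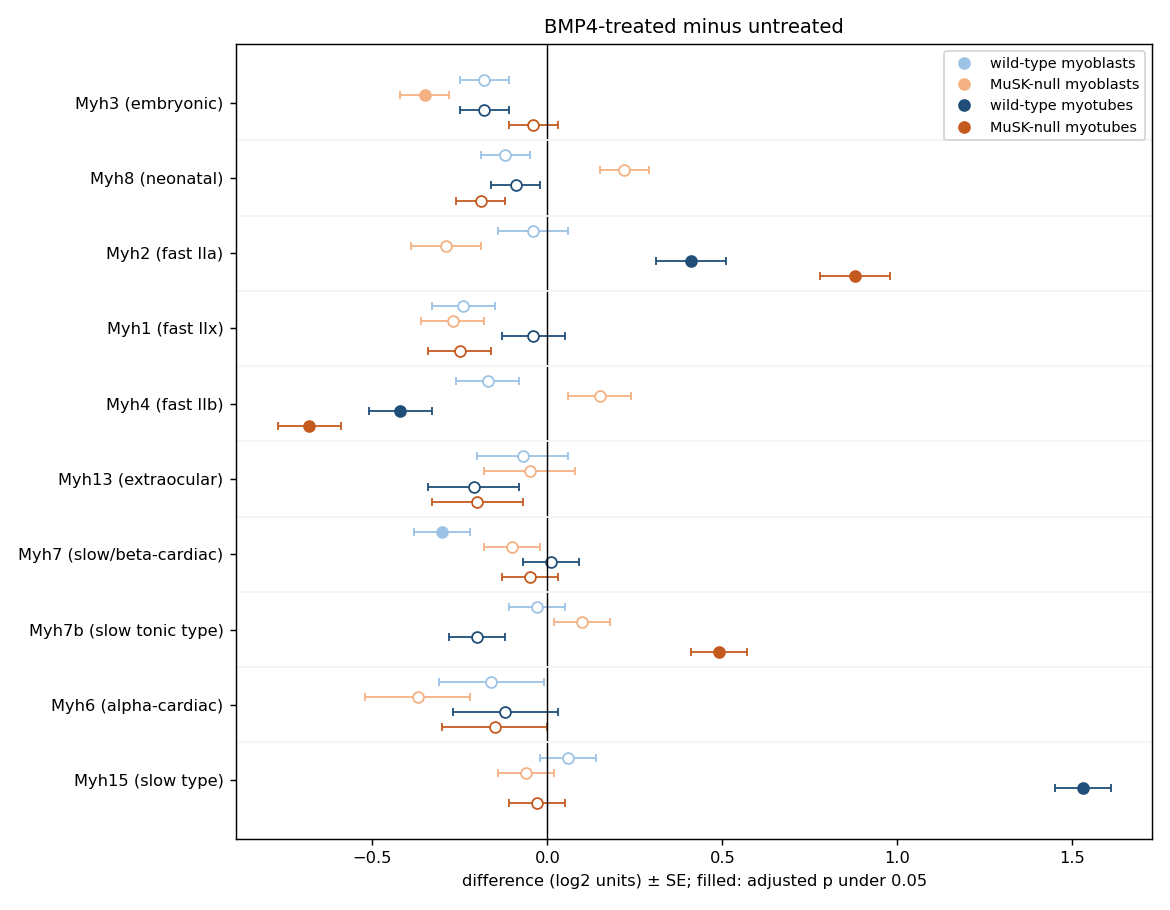
Difference between BMP4-treated and untreated cells (log2 units, points with SE bars) for the 10 genes in the 4 kinds of culture; filled points have an adjusted p under 0.05. In myotubes of both lines Myh2 rises (0.41 and 0.88) and Myh4 falls (-0.42 and -0.68), while Myh15 rises in wild type alone by its call (1.53) and Myh7b in the MuSK-null line alone by its call (0.49).

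Partners of the heavy chains in the thick filament were read from lists drawn up by function. Beside them, 16.0% of all genes were called lower and 15.3% higher in untreated MuSK-null myoblasts. In untreated MuSK-null myotubes these shares were 18.0% lower and 19.4% higher. Of 9 myosin light chain and kinase genes, 5 were lower in untreated MuSK-null myoblasts (median -1.87), among them the fast regulatory chain Mylpf with -2.52 (SE 0.08). In untreated myotubes 5 were lower as well (median -0.38), led by the slow regulatory chain Myl2 with -3.70 (SE 0.08, adjusted p = 3.48e-20). Myl2 also rose with stage by 4.58 (SE 0.08) in wild type and by 0.88 (SE 0.08) in the MuSK-null line. Its untreated myoblast means of 6.49 in wild type and 6.48 in the MuSK-null line were near background, so these rises are not exact sizes. Of 13 thick filament and M-band genes, 10 were lower in untreated MuSK-null myoblasts, among them the titin gene Ttn with -2.50 (SE 0.07). In untreated myotubes 7 were lower and 2 higher, with the fast myosin-binding protein gene Mybpc2 at -1.79 (SE 0.12) and the slow Mybpc1 at 0.75 (SE 0.09). Of 5 genes of myosin folding and assembly, 4 were lower and 1 higher in MuSK-null myoblasts, the lower ones including the myosin chaperone gene Unc45b (-1.93, SE 0.09) and the methyltransferase gene Smyd1 (-1.80, SE 0.07). In untreated myotubes 2 of the 5 were lower, Hsp90aa1 (-0.50, SE 0.06) and Smyd1 (-0.28, SE 0.07).

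Thin filament genes were also read by type, beside the same shares of all genes. Of 5 fast thin filament genes 4 were lower in MuSK-null myoblasts (median -1.99) and 2 in MuSK-null myotubes (median -0.07), where Actn3, the Z-disc actinin of fast fibres, was the largest with -1.80 (SE 0.07). Of 4 slow thin filament genes 3 were lower in myoblasts and 2 in myotubes, with the slow troponin T gene Tnnt1 at -1.04 (SE 0.09) in myotubes. A further list of 6 genes, Actc1, Tnnt2, Tnni3, Acta1, Tpm2 and Actn2, is not purely developmental or cardiac. Acta1 and Actn2 are also among the defining skeletal muscle markers. Of the 6, 5 were lower and 1 higher in myoblasts. In myotubes 4 were lower, namely Actn2 (-0.35, SE 0.07), Acta1 (-0.29, SE 0.06), Tpm2 (-0.20, SE 0.05) and Tnnt2 (-0.14, SE 0.05). With BMP4, Actn3 changed by -0.10 (SE 0.07, adjusted p = 0.494) in wild-type myotubes and fell in MuSK-null myotubes (-0.28, SE 0.07, adjusted p = 0.0092), and the responses differed by -0.18 (SE 0.10, adjusted p = 0.46). Mylk2, the skeletal myosin light chain kinase gene, rose with BMP4 in myotubes of both lines, by 0.77 (SE 0.10, adjusted p = 5.5e-06) and 0.85 (SE 0.10, adjusted p = 9.77e-07). Among 20 regulators of fibre type and myogenesis, Tbx15, a factor of fast glycolytic fibres, fell with BMP4 in myotubes of both lines, by 0.78 (SE 0.06, adjusted p = 9.21e-09) and 0.76 (SE 0.06, adjusted p = 1.09e-08). Ppargc1a fell too, with changes of -0.91 (SE 0.14, adjusted p = 8.36e-05) in wild type and -0.56 (SE 0.14, adjusted p = 0.00823) in the MuSK-null line. Myf5 rose by 0.68 (SE 0.08) in wild type and 0.71 (SE 0.08) in the MuSK-null line, and Eya4 by 0.58 (SE 0.07) in each. Sox6, a repressor of slow fibre genes, was higher by 1.05 (SE 0.06) in untreated MuSK-null myotubes and fell there with BMP4 by 0.77 (SE 0.06, adjusted p = 7.39e-09). Its change in wild-type myotubes was -0.16 (SE 0.06, adjusted p = 0.153), and the responses differed by -0.61 (SE 0.09, adjusted p = 0.000174). In wild-type myotubes 3 of the 20 regulators rose with BMP4 and 4 fell, where 4.40% of all genes were called higher and 4.37% lower. In MuSK-null myotubes 4 rose and 5 fell, where 5.36% of all genes were called higher and 5.90% lower.

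The non-sarcomeric heavy chains, which serve the cytoskeleton and smooth muscle, were 4 in number. Of these, 1 was higher and 1 lower in untreated MuSK-null cells at either stage, beside the shares of all genes given above. The higher one was Myh10, which encodes non-muscle myosin IIB. It read 7.19, 7.38 and 7.29 in untreated wild-type and 11.19, 11.32 and 11.04 in untreated MuSK-null myoblasts, a difference of 3.89 (SE 0.09, a 14.9-fold difference, adjusted p = 3.43e-19). In untreated myotubes it read 7.55, 7.43 and 7.44 against 10.11, 10.14 and 10.00, a difference of 2.61 (SE 0.09, adjusted p = 3.75e-16). The lines were separate at each stage, in the direction opposite to most sarcomeric chains. Myh9, which encodes non-muscle myosin IIA, fell with stage by 0.62 (SE 0.07) in wild type and by 0.93 (SE 0.07) in the MuSK-null line.

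Genes outside the family with the most similar pattern were taken as the 3 with the highest Pearson correlation over the 8 group means, given as a description of groups that share line and stage. For Myh3 these were Actc1 (0.9986), which encodes the cardiac alpha-actin of developing muscle, Myl4 (0.9982), the embryonic light chain gene, and Stac3 (0.9963), a gene of excitation-contraction coupling. For Myh8 they were Ehbp1l1 (0.9993), Sgca (0.9990) and Cacna1s (0.9989). For Myh1 they were Gpx3 (0.9975), Cavin4 (0.9970) and Prmt5 (0.9965), and for Myh7 Hsd11b1 (0.9978), R3hdml (0.9964) and Jag2 (0.9949). For Myh15 they were Col20a1 (0.9860), Ckmt1 (0.9842) and Hgfac (0.9726), with 0.707, 0.813 and 0.901 over the 24 arrays. Myh15 was near background in 7 of the 8 groups, so its values rest largely on BMP4-treated wild-type myotubes. Within the family Myh1 and Myh7 were the closest of the pairs with Myh1, at 0.995 over the 8 group means, and Myh1 and Myh13 the least alike at 0.109. Myh13 was near background in all 8 groups, so no pattern is read from the latter value.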

How the data were processed

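The deposited table holds log2 signals, 1 per probe set and array, as the authors made them; the scale was read from the values. The submitters' processing notes name Affymetrix Expression Console and Partek; how signals were corrected, summarised and normalized is not stated there. Of 35556 rows the platform annotation lists 1 gene for 21789, several for 1621 and none for 12146. One-gene rows were used, the one with the highest mean for each gene, which left 19938 genes. With limma 3.58.1 in R 4.3.3, the means of the 8 groups were estimated from all 24 arrays (16 residual degrees of freedom) and 13 contrasts tested by its moderated test. The test was checked on simulated arrays. Replicate numbers paired the samples (every correlation of deviations over 0.1) in 2 contrasts, BMP4 in MuSK-null myoblasts and line in untreated myoblasts, although no label gives a shared batch. The members and lists were chosen with earlier results of these data known. All 10 members are named, with some genes of each partner list, which are not always those of largest change. Promoter and microRNA sequences are RefSeq's (GRCm38.p6). Alternatives are listed in the closing section.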

Additional observations from a re-analysis of the deposited data

Results flagged for a closer look

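Differences between the lines in a change of these genes are collected here, each from a test of the difference itself. The change from untreated myoblasts to untreated myotubes differed, as MuSK-null minus wild type in log2 units, by 3.71 for Myh3, 2.13 for Myh8, 1.67 for Myh1 and 0.69 for Myh7. It differed by -1.46 for Myh4, -1.27 for Myh2 and -0.78 for Myh15. MuSK-null myoblast signals of Myh8, Myh1, Myh4, Myh2 and Myh15 were near background, so no direction is read from the negative values of Myh4, Myh2 and Myh15. The BMP4 response of myotubes differed by -1.56 for Myh15 and by 0.69 for Myh7b. Groups of 3 arrays are too small for a check of single arrays that stand apart.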

How the results depend on the processing

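The number of the 10 genes called was recomputed under a fit of the compared groups alone, trend and robust moderation, quantile normalization, median centring, leaving out dim genes, a replicate block, leaving out each array in turn and, chosen after seeing the data, the array set as a block or left out. For the 7 comparisons of stage and of line, the difference of stage changes included, and for BMP4 in myotubes and its difference between lines, the count stayed within 1.5 times its value. For BMP4 in wild-type myoblasts (1 gene) it was 2 with the array set as a block, 0 without the set, and 0 to 1 on leaving out single arrays. For BMP4 in MuSK-null myoblasts (1 gene) it was 0 with the compared groups alone, 2 with trend and robust moderation, the array set as a block or the replicate block, 3 with dim genes left out, quantile normalization, median centring or no array set, and 1 to 3 on leaving out single arrays. For the difference of myoblast responses (0 genes) it ran from 0 to 1 on leaving out single arrays. The replicate block changed no other count and no call of a gene above background. Most changed calls of single genes are given beside them in the text. Between treated lines, the call of Myh6 was lost without MuSK-null myoblast replicate 3 (-0.33, adjusted p = 0.0615), without wild-type myotube replicate 3 (-0.43, adjusted p = 0.0538) or without MuSK-null myotube replicate 1 (-0.41, adjusted p = 0.0624). Calls were gained for Myh7b between treated myoblasts without MuSK-null replicate 3 (-0.26, adjusted p = 0.0279) and for Myh6 between untreated myoblasts with the compared groups alone (-0.36, adjusted p = 0.0164). Under BMP4 they were gained for Myh1 in wild-type myoblasts (-0.24, adjusted p = 0.0225) where that set entered as a block and for Myh3 in wild-type myotubes without the set (-0.18, adjusted p = 0.0474). In MuSK-null myoblasts they were gained for Myh6 without the set (-0.59, adjusted p = 0.041) or treated replicate 2 (-0.54, adjusted p = 0.0232) and for Myh8 with dim genes left out (0.22, adjusted p = 0.0487). The difference of myoblast responses was gained for Myh8 without wild-type untreated replicate 3 (0.42, adjusted p = 0.0259). Small uncalled values changed sign on leaving out single arrays. These ranged from -0.06 to 0.00 for Myh7b under BMP4 in wild-type myoblasts, from -0.02 to 0.03 for Myh7 under BMP4 in wild-type myotubes and from -0.20 to 0.03 for the difference of the stage change of Myh6. The difference of BMP4 responses ranged from -0.14 to 0.10 for Myh1 and from -0.38 to 0.03 for Myh6 in myoblasts, and from -0.16 to 0.07 for Myh6 in myotubes. Near-background counts depend on the guide: in untreated MuSK-null myoblasts 6 of 10 genes were at or below it, 1 with vomeronasal receptor probe sets and 9 at the 99th percentile of olfactory receptors, and in treated wild-type myotubes the counts were 1, 0 and 2. Other probe sets of a member could not be tried, since each has 1. The causes were not tested.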
